A study of Mus musculus with 16 samples.

Results

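The 10 mature miRNAs described here come from 6 precursors at the Meg3 end of the imprinted Dlk1-Dio3 region of mouse chromosome 12. They are both arms of miR-770, miR-673, miR-493 and miR-337, and the 3p arms of miR-540 and miR-665. They were taken by name from the 1978 miRNA names of the count table. The rule goes by position and uses no measured value, but it was proposed with earlier results of these data known. Counts came from primary mouse forebrain neurons, cultured from perinatal animals and transduced with a lentiviral vector, in 16 small RNA libraries. The 4 groups of 4 libraries received a short hairpin RNA carrying 5 point mutations (shRNA_5bp), the hairpin with 2 point mutations (shRNA_2bp), the unmutated hairpin (shRNA), or the vector with no hairpin (Empty_Vector). All groups, controls included, were transduced. The labels name no target, promoter, strain, animal or culture, so the p-values measure the spread between these libraries, which may be technical. The question behind the comparisons, per the series title, is whether hairpins alter miRNAs independently of their target.

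In the Dlk1-Dio3 region, RNA from the maternal chromosome is transcribed through Meg3, the genes antisense to Rtl1, Rian and Mirg, and carries a long series of miRNA hairpins. The nuclear enzyme Drosha cuts each hairpin out of the long transcript, Dicer then trims it, and 1 of its arms (5p or 3p) is usually kept on an Argonaute protein while the other is degraded. Many miRNAs of the region are abundant in brain and placenta. Bases 2 to 8 of a mature miRNA, the seed, do most of the pairing with target messages.

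All 10 members were matched to a RefSeq entry on GRCm38.p6, the build named in the submitters' processing notes, and all lie on the plus strand of chromosome 12. The sequences are printed 5′ to 3′ to show which arm each value belongs to and that no seed is shared. Capitals mark the seed, and the names carry the mouse prefix mmu that is left out elsewhere.
mmu-miR-770-5p: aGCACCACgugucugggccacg
mmu-miR-770-3p: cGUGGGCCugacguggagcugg
mmu-miR-673-5p: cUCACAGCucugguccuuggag
mmu-miR-673-3p: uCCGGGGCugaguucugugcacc
mmu-miR-493-5p: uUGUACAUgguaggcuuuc
mmu-miR-493-3p: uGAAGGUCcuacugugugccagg
mmu-miR-337-5p: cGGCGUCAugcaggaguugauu
mmu-miR-337-3p: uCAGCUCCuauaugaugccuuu
mmu-miR-540-3p: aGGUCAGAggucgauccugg
mmu-miR-665-3p: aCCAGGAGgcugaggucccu
The 10 members have 10 distinct seeds. Among other mouse miRNAs in RefSeq, only miR-6985-3p shares the seed of miR-673-5p and only miR-6915-5p that of miR-540-3p, and neither passed the filter on low counts. The members are rich in G and C. Their GC content ran from 40.9% in miR-337-3p to 72.7% in miR-770-3p, and 6 of the 10 lay above 58.1%, the upper quartile of the 427 tested miRNAs with a RefSeq sequence.

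The precursors lie in the order miR-770, miR-673, miR-493, miR-337, miR-540, miR-665. The miR-770 hairpin (chr12:109563692-109563785) is the one inside Meg3 (chr12:109541001-109571726 in GENCODE M21). It lies in an intron of 3 of the 4 Meg3 transcripts that span it and overlaps an exon of the other. The miR-673 hairpin (chr12:109571990-109572080) starts 0.264 kb past the annotated end of Meg3, and the miR-493 hairpin (chr12:109580233-109580315) starts 8.51 kb past it. The last 3 stand close together, with 194 bases between miR-337 (chr12:109585789-109585885) and miR-540 (chr12:109586080-109586146) and 167 bases between miR-540 and miR-665 (chr12:109586314-109586407). No annotated gene other than their own precursor overlaps the 5 hairpins past Meg3, apart from Mir3544 on the opposite strand of the miR-337 hairpin. How the authors' counting treated the strand is not given in the sources used here, so miR-337 values carry that doubt.

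Libraries held 831859 to 2496036 counts with shRNA_5bp, 1177068 to 2097782 with shRNA_2bp, 5304461 to 8061785 with shRNA and 2760894 to 11139163 with Empty_Vector, so depth differed along with the group. Levels are given as counts-per-million (CPM), after trimmed mean of M values scaling. The neuronal miR-128-3p took 24.0 to 28.1%, 23.9 to 25.3%, 31.6 to 34.1% and 38.1 to 39.7% of the counts in shRNA_5bp, shRNA_2bp, shRNA and Empty_Vector libraries. Scaling by library size alone in place of the trimmed mean raised the median change of all tested miRNAs against Empty_Vector to 0.30 in place of 0.06 with shRNA_5bp, 0.19 in place of 0.01 with shRNA_2bp and 0.18 in place of 0.04 with shRNA (log2). Log2 differences of that size depend on the scaling. Summed levels of 6 neuronal marker miRNAs were 298927 to 352581 CPM with shRNA_5bp, 323838 to 352321 with shRNA_2bp, 377436 to 429016 with shRNA and 489578 to 524934 with Empty_Vector. MiR-128-3p is 1 of the 6 and made up most of each sum. Of these 6, 4, 3 and 2 rose and 1, 2 and 1 fell with shRNA_5bp, shRNA_2bp and shRNA. Of 8 vessel and fibroblast markers, 5 were tested and 3 rose with shRNA_5bp, 3 with shRNA_2bp and 0 with shRNA. Their sum was 1113 to 1296, 1187 to 1419, 671.9 to 765.1 and 712.6 to 813.7 CPM in the same order of groups. The 3 astroglia-leaning markers summed to 2075 to 2387, 3567 to 3892, 2054 to 2244 and 1838 to 2058 CPM, and 2, 3 and 1 of them rose with shRNA_5bp, shRNA_2bp and shRNA. Of 5 microglial and leukocyte markers, miR-142a-3p and miR-223-3p were at 0 in every library and 2 others were tested, of which 1, 1 and 2 rose with shRNA_5bp, shRNA_2bp and shRNA. That list summed to 65.7 to 86.3, 88.7 to 104.5, 77.8 to 106.5 and 51.0 to 61.4 CPM with shRNA_5bp, shRNA_2bp, shRNA and Empty_Vector, with all hairpin libraries above all Empty_Vector libraries. The part of other cells or of depth in the results on the members was not tested. In these bulk samples, fewer cells of a type and less RNA per cell cannot be told apart.

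Of the 10 members, 9 passed edgeR's filter on low counts and were tested among 483 miRNAs, with p-values adjusted by Benjamini and Hochberg over all 483. A miRNA is said to have risen or fallen when the adjusted p of the quasi-likelihood test was below 0.05. With shRNA_2bp against Empty_Vector 6 members fell, 0 rose and 3 did not pass, where 32.3% of all tested miRNAs fell and 33.3% rose. Those 6 were both arms of miR-770, miR-673 and miR-493, so the counts and medians here are of arms and not of separate precursors. With shRNA_5bp 6 fell, 1 rose and 2 did not pass, against 26.7% and 31.5% of all tested miRNAs. With shRNA 4 fell, 1 rose and 4 did not pass, against 15.1% and 19.7%. The median log2 change of the 9 was -0.65 with shRNA_5bp, -1.92 with shRNA_2bp and -0.22 with shRNA, beside 0.06, 0.01 and 0.04 over all tested miRNAs. The libraries did not overlap with Empty_Vector for 6 of the 9 with shRNA_5bp, 7 with shRNA_2bp and 4 with shRNA, beside 50.3%, 59.2% and 32.9% of all tested miRNAs. The 3 comparisons share the same Empty_Vector libraries.

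**Figure D1:**
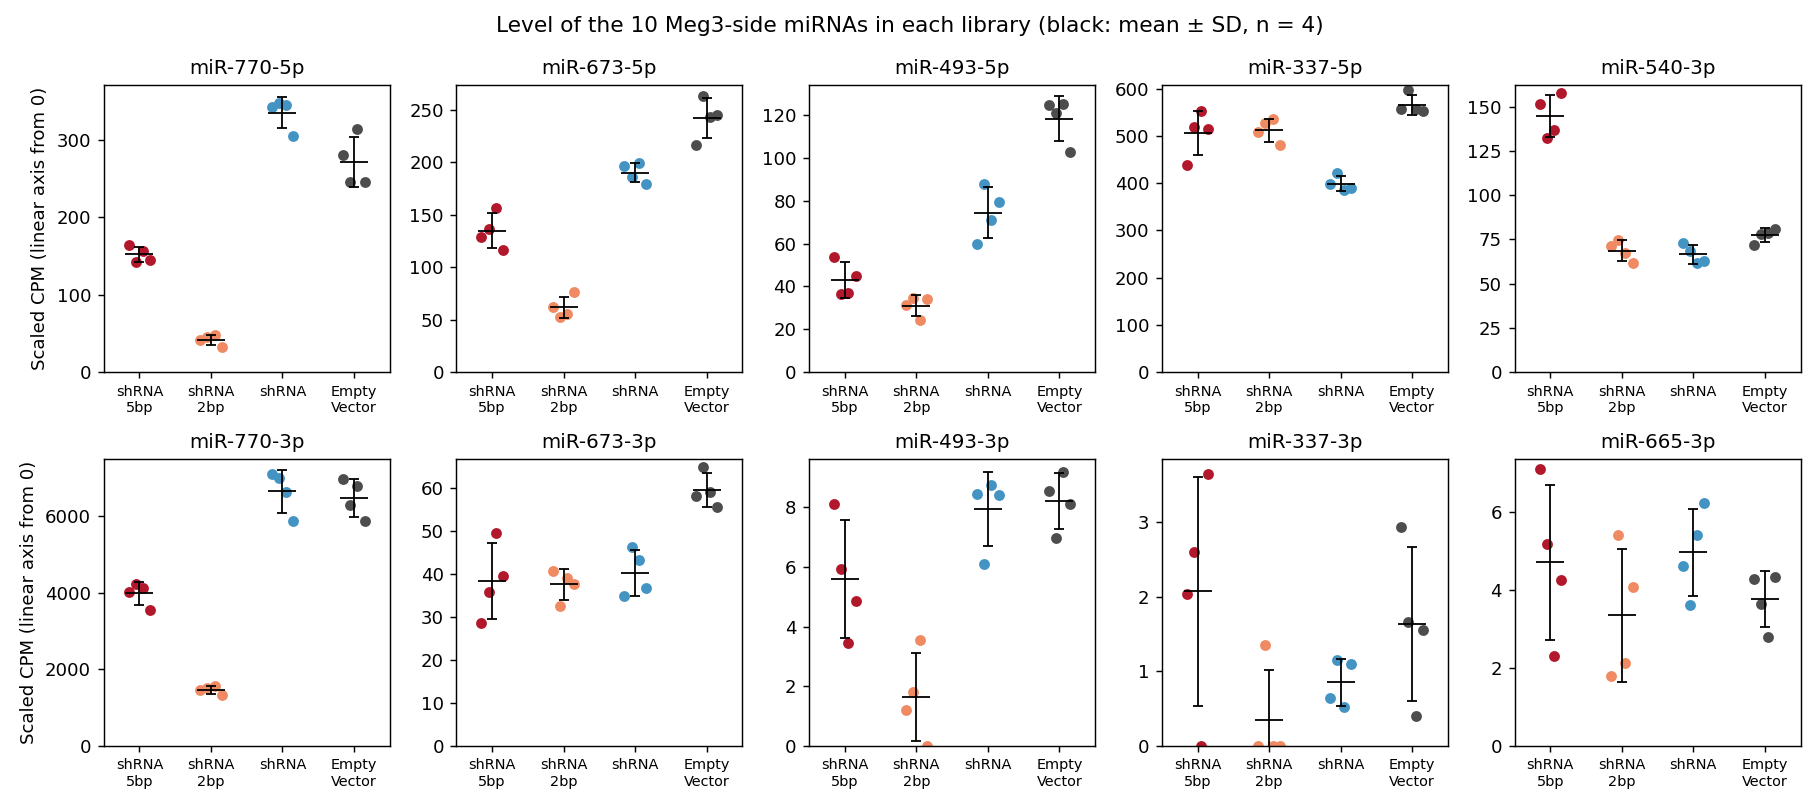
Level of each of the 10 members in each library (scaled CPM, linear axes from 0). Points are libraries, black bars the mean ± SD of 4. MiR-770-3p lies at 1326 to 1549 CPM in the shRNA_2bp libraries, below every library of the other groups, and miR-540-3p lies at 132.5 to 157.5 CPM in the shRNA_5bp libraries, above every other library.

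MiR-770, the hairpin inside Meg3, was the most abundant precursor of the set and fell most with the 2-mutation hairpin. MiR-770-3p was at 4013, 4238, 4133 and 3558 CPM in the shRNA_5bp libraries and at 1452, 1507, 1549 and 1326 CPM in the shRNA_2bp libraries. It was at 7101, 6987, 6641 and 5867 CPM with shRNA and at 6968, 6279, 6798 and 5882 CPM with Empty_Vector. The shRNA_2bp libraries were the lowest, the shRNA_5bp libraries lay between, and the shRNA and Empty_Vector libraries overlapped. With shRNA_2bp miR-770-3p fell 4.44-fold against Empty_Vector (95% interval 3.99 to 4.95, log2 -2.15 ± 0.071 SE, adjusted p = 8.71e-21). With shRNA_5bp it fell 1.63-fold (1.47 to 1.80, adjusted p = 7.02e-10), or by 0.46 in place of 0.70 on the log2 scale when libraries were scaled by size alone. With shRNA the value was 0.04 ± 0.068 on the log2 scale (interval -0.11 to 0.18, adjusted p = 0.726). Library-size scaling gave 0.18 there (adjusted p = 0.0191), past the threshold.

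The less abundant 5p arm of the same hairpin showed the same order of the mutated hairpins at a lower level. MiR-770-5p was at 164.5, 142.6, 156.5 and 145.3 CPM with shRNA_5bp and at 41.3, 44.8, 48.3 and 32.7 CPM with shRNA_2bp. It was at 342.7, 347.9, 345.3 and 305.7 CPM with shRNA and at 280.8, 245.2, 314.3 and 246.3 CPM with Empty_Vector. Only the shRNA and Empty_Vector libraries overlapped. MiR-770-5p fell 6.41-fold with shRNA_2bp against Empty_Vector (5.42 to 7.59, adjusted p = 1.6e-18), which was the 6th largest fall among the 483 miRNAs. It fell 1.79-fold with shRNA_5bp (1.55 to 2.07, adjusted p = 1.51e-08). With shRNA it rose by 0.31 ± 0.088 on the log2 scale, or 1.24-fold (1.09 to 1.42, adjusted p = 0.00636), but by 0.23 (adjusted p = 0.0697) without Empty_Vector library 4.

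Set against each other, the hairpins differed for both arms of miR-770. MiR-770-5p was 7.95-fold lower with shRNA_2bp than with shRNA (6.73 to 9.40, adjusted p = 9.63e-20) and 2.22-fold lower with shRNA_5bp than with shRNA (1.92 to 2.57, adjusted p = 5.28e-11). It was 3.58-fold higher with shRNA_5bp than with shRNA_2bp (log2 1.84, interval 1.58 to 2.10, adjusted p = 8.51e-14). MiR-770-3p was 4.56-fold lower with shRNA_2bp than with shRNA (adjusted p = 5.64e-21), 1.67-fold lower with shRNA_5bp than with shRNA (adjusted p = 2.88e-10) and 2.73-fold higher with shRNA_5bp than with shRNA_2bp (adjusted p = 1.56e-16). The level of miR-770-5p thus ran, from the highest, shRNA, Empty_Vector, shRNA_5bp, shRNA_2bp, with every neighbouring pair past the threshold, the first of them not without Empty_Vector library 4.

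MiR-673 lies just past the annotated end of Meg3, and both of its arms fell with each of the 3 hairpins. MiR-673-5p was at 129.0, 136.6, 156.5 and 116.7 CPM with shRNA_5bp and at 62.3, 52.9, 55.3 and 76.1 CPM with shRNA_2bp. It was at 196.3, 186.5, 199.0 and 179.4 CPM with shRNA and at 216.8, 263.3, 243.3 and 244.8 CPM with Empty_Vector. No pair of groups overlapped, and the order from the highest was Empty_Vector, shRNA, shRNA_5bp, shRNA_2bp. The 5p arm fell 3.97-fold with shRNA_2bp (3.37 to 4.69, adjusted p = 1.5e-15) and 1.81-fold with shRNA_5bp (1.55 to 2.11, adjusted p = 2.58e-08). With shRNA it fell 1.27-fold (1.11 to 1.46, adjusted p = 0.00372). That last fall did not pass with library-size scaling (-0.21, adjusted p = 0.0865), without Empty_Vector library 2 (-0.25, adjusted p = 0.0718) or without shRNA library 2 (-0.27, adjusted p = 0.052). Between hairpins, the 5p arm was 3.12-fold lower with shRNA_2bp than with shRNA (adjusted p = 1.28e-13), 1.42-fold lower with shRNA_5bp than with shRNA (adjusted p = 0.00011) and higher by 1.13 on the log2 scale with shRNA_5bp than with shRNA_2bp (adjusted p = 1.97e-09).

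MiR-673-3p was at 28.4, 35.6, 49.5 and 39.5 CPM with shRNA_5bp, at 40.7, 32.6, 39.0 and 37.6 CPM with shRNA_2bp, at 34.7, 46.1, 43.3 and 36.7 CPM with shRNA, and at 58.1, 64.9, 59.0 and 55.6 CPM with Empty_Vector. All 12 hairpin libraries lay below all 4 Empty_Vector libraries, and the 3 hairpin groups overlapped one another. The 3p arm fell by 0.65 ± 0.146 on the log2 scale with shRNA_5bp (adjusted p = 0.000343), by 0.67 ± 0.143 with shRNA_2bp (adjusted p = 0.00018) and by 0.57 ± 0.126 with shRNA (adjusted p = 0.000652). With library-size scaling the shRNA_5bp value was -0.40 (adjusted p = 0.0206). The hairpins did not differ past the threshold for this arm. The log2 difference was -0.10 for shRNA_2bp against shRNA (interval -0.42 to 0.21, adjusted p = 0.55), -0.08 for shRNA_5bp against shRNA (-0.41 to 0.24, adjusted p = 0.665) and 0.02 for shRNA_5bp against shRNA_2bp (-0.34 to 0.38, adjusted p = 0.916).

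**Figure D2:**
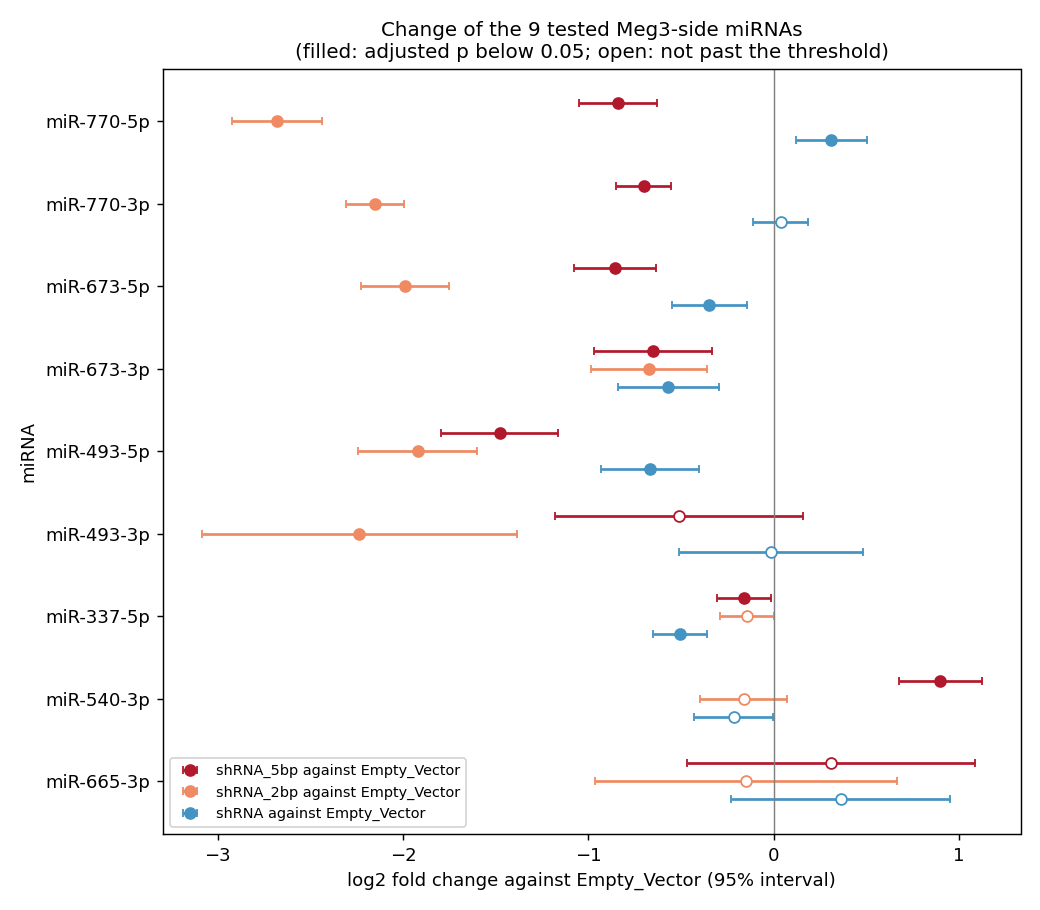
Log2 fold change against Empty_Vector with its 95% interval for the 9 tested members, for shRNA_5bp, shRNA_2bp and shRNA from top to bottom in each row. Filled points passed an adjusted p of 0.05. The shRNA_2bp points of both miR-770 arms, miR-673-5p and both miR-493 arms lie between -2.68 and -1.92, and those of miR-337-5p, miR-540-3p and miR-665-3p between -0.16 and -0.14.

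Where both arms of a hairpin were counted at 10 or more reads in every library, the ratio of the arms could be compared within libraries, which needs no scaling between them. This held for miR-770 and miR-673. The hairpins are printed with the mature arms in capitals, the 5p arm first, to show that the arms compared come from 1 precursor each.
miR-770 hairpin: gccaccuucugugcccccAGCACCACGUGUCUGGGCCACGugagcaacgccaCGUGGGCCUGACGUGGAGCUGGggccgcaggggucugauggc
miR-673 hairpin: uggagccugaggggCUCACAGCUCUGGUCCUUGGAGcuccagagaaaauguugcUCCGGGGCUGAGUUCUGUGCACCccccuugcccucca
In miR-673 the 5p arm prevailed in every library. The log2 ratio of 5p to 3p was 0.61, 0.70, 0.50 and 1.01 in the shRNA_2bp libraries and 1.90, 2.02, 2.04 and 2.14 in the Empty_Vector libraries, with no overlap (difference -1.32 ± 0.120 SE). In summed counts the 5p arm was 1.63 times the 3p arm with shRNA_2bp and 4.14 times with Empty_Vector. For miR-673 the difference from Empty_Vector was -0.20 ± 0.147 with shRNA_5bp and 0.23 ± 0.112 with shRNA, and both overlapped Empty_Vector.

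In miR-770 the 3p arm prevailed, at 26.9 times the 5p count with shRNA_5bp, 34.6 times with shRNA_2bp, 19.9 times with shRNA and 24.4 times with Empty_Vector (summed counts). The log2 ratio of 5p to 3p in the miR-770 libraries was -5.13, -5.07, -4.99 and -5.32 with shRNA_2bp and -4.37, -4.33, -4.27 and -4.26 with shRNA, against -4.63, -4.68, -4.43 and -4.58 with Empty_Vector. The shRNA_2bp libraries lay below and the shRNA libraries above all Empty_Vector libraries, with differences of -0.55 ± 0.088 and 0.27 ± 0.059. With shRNA_5bp the difference was -0.13 ± 0.085 and the groups overlapped. Of the 6 comparisons of arm ratios, the 3 without overlap reached p = 0.0286 in the two-sided exact permutation test, the smallest p that 4 libraries against 4 allow, and adjusted p = 0.0571 over the 6. None passed the threshold after adjustment.

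**Figure D3:**
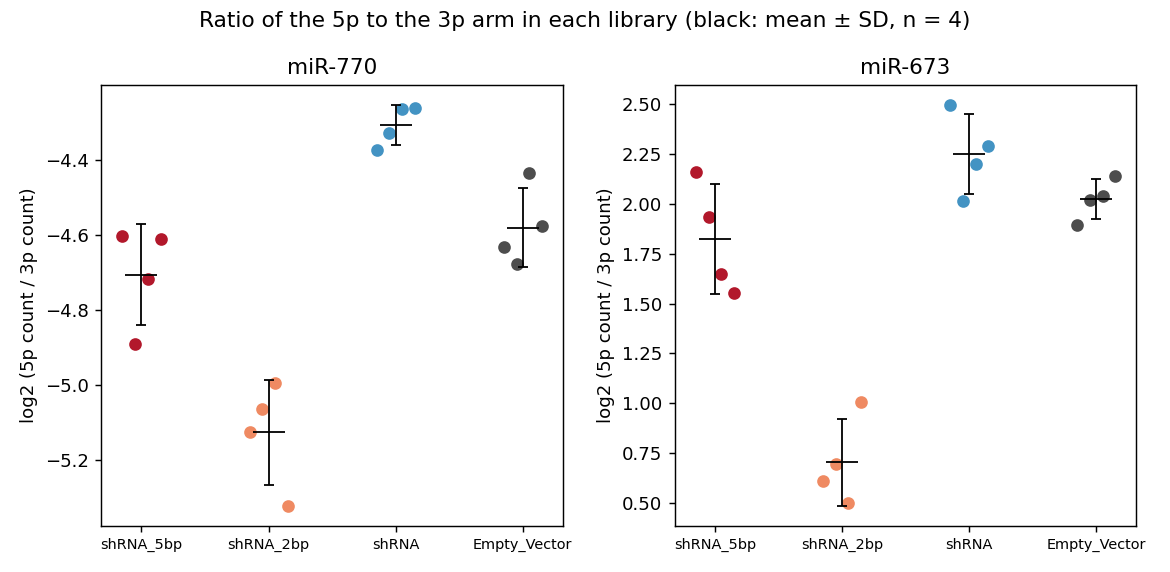
Log2 ratio of the 5p to the 3p count of miR-770 and miR-673 in each library, with 0.5 added to each count. Points are libraries and black bars the mean ± SD of 4. The shRNA_2bp libraries are the lowest in both panels, at -5.32 to -4.99 for miR-770 and 0.50 to 1.01 for miR-673.

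MiR-493, described in human colorectal cancer cells as a brake on spread to the liver, fell with all 3 hairpins in its main 5p arm. MiR-493-5p was at 53.8, 36.4, 36.8 and 45.0 CPM with shRNA_5bp and at 31.1, 34.4, 24.1 and 34.4 CPM with shRNA_2bp. It was at 59.8, 88.0, 71.0 and 79.4 CPM with shRNA and at 124.6, 121.1, 125.2 and 103.0 CPM with Empty_Vector. No pair of groups overlapped. The 5p arm fell 2.79-fold with shRNA_5bp (2.24 to 3.47, adjusted p = 7.44e-10), 3.79-fold with shRNA_2bp (3.03 to 4.73, adjusted p = 2.94e-12) and 1.59-fold with shRNA (1.32 to 1.91, adjusted p = 6.55e-05). It was 2.39-fold lower with shRNA_2bp than with shRNA (adjusted p = 2.15e-08) and 1.76-fold lower with shRNA_5bp than with shRNA (adjusted p = 2.68e-05).

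The mutated hairpins differed less firmly for miR-493-5p. It was higher by 0.44 ± 0.173 on the log2 scale with shRNA_5bp than with shRNA_2bp (adjusted p = 0.0297). The call was lost without the filter on low counts (0.32, adjusted p = 0.193), in DESeq2 (0.37, adjusted p = 0.072) and with only these 2 groups in the fit (0.30, adjusted p = 0.191). It was also lost without shRNA_2bp library 1 (0.44, adjusted p = 0.0507) or 3 (0.36, adjusted p = 0.0812), and without shRNA_5bp library 1 (0.34, adjusted p = 0.112) or 4 (0.28, adjusted p = 0.23).

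The 3p arm of miR-493 was scarce, with 8, 16, 3 and 8 counts in the shRNA_5bp libraries, 2, 4, 5 and 0 in the shRNA_2bp libraries, 66, 32, 50 and 54 in the shRNA libraries and 38, 67, 23 and 84 in the Empty_Vector libraries. In scaled CPM its means were 5.59 ± 1.97, 1.64 ± 1.48, 7.93 ± 1.23 and 8.21 ± 0.931 (SD, n = 4) in the same order. MiR-493-3p fell 4.71-fold with shRNA_2bp against Empty_Vector (2.61 to 8.50, log2 -2.24, adjusted p = 1.35e-05; log2 -2.82 without shRNA_2bp library 3) and was 4.66-fold lower than with shRNA (adjusted p = 1.39e-05). With shRNA_5bp its log2 value was -0.51 ± 0.306 (adjusted p = 0.152) and with shRNA -0.02 ± 0.228 (interval -0.51 to 0.48), which did not pass. It was 3.30-fold higher with shRNA_5bp than with shRNA_2bp (1.62 to 6.71, adjusted p = 0.00243), although the libraries of these groups overlapped. With only these groups in the fit it did not pass the filter and was not tested. Against shRNA, the shRNA_5bp value of -0.50 (adjusted p = 0.174) became -0.75 (adjusted p = 0.0455) without shRNA library 2.

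MiR-337-5p, the second most abundant member, was lowest with the unmutated hairpin. It was at 439.7, 519.4, 552.3 and 514.3 CPM with shRNA_5bp and at 507.7, 527.0, 535.7 and 480.3 CPM with shRNA_2bp. It was at 397.5, 421.0, 385.8 and 391.0 CPM with shRNA and at 558.4, 597.7, 557.1 and 552.3 CPM with Empty_Vector. The shRNA libraries lay below all others, and the mutated hairpins overlapped each other. MiR-337-5p fell 1.42-fold with shRNA against Empty_Vector (1.29 to 1.57, log2 -0.51 ± 0.066, adjusted p = 5.16e-07). It was 1.29-fold higher with shRNA_2bp than with shRNA (1.16 to 1.42, adjusted p = 3.15e-05) and 1.27-fold higher with shRNA_5bp than with shRNA (log2 0.35 ± 0.068, adjusted p = 9.04e-05).

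The small differences of the mutated hairpins from Empty_Vector in miR-337-5p depended on the settings. With shRNA_5bp the value was -0.16 ± 0.068 (adjusted p = 0.0437), but 0.08 (adjusted p = 0.329) with library-size scaling and -0.39 (adjusted p = 7.91e-06) without the filter on low counts. It was -0.25 (adjusted p = 0.0095) with only these 2 groups in the fit and -0.09 (adjusted p = 0.255) without shRNA_5bp library 1, and it was -0.25 without Empty_Vector library 3 and -0.26 without shRNA_5bp library 4. With shRNA_2bp it was -0.14 ± 0.067 (adjusted p = 0.0634), but 0.04 (adjusted p = 0.653) with library-size scaling, and -0.25 (adjusted p = 0.00933) without the filter. It passed in DESeq2 (-0.13, adjusted p = 0.0434), and without Empty_Vector library 4 (-0.22, adjusted p = 0.0153), shRNA_2bp library 3 (-0.23, adjusted p = 0.0126) or shRNA_2bp library 4 (-0.18, adjusted p = 0.0381). The rise of shRNA_5bp over shRNA, 0.35 on the log2 scale, was 0.14 (adjusted p = 0.263) without the filter and 0.18 (adjusted p = 0.0509) without shRNA library 3. It was 0.20, 0.22 and 0.19 without shRNA library 1, shRNA library 2 or shRNA_5bp library 4.

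The opposite arm, miR-337-3p, did not pass the filter. It had 2, 7, 0 and 6 counts in the shRNA_5bp libraries, 0, 3, 0 and 0 in the shRNA_2bp libraries, 5, 6, 3 and 7 in the shRNA libraries and 13, 16, 1 and 16 in the Empty_Vector libraries. A count of 0 allows up to 3 counts, which is 3.45 scaled CPM in the shRNA_5bp library at 0 and 1.80 to 2.45 in the 3 shRNA_2bp libraries at 0, for counting error alone. In the fit without the filter no comparison of miR-337-3p passed, although 4 of the 6 had an unadjusted p below 0.05. The log2 values were -1.96 ± 0.810 for shRNA_2bp against Empty_Vector (adjusted p = 0.0629) and 2.18 ± 0.889 for shRNA_5bp against shRNA_2bp (adjusted p = 0.0688), the smallest adjusted p-values of the 6.

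MiR-540-3p, which starts 45.1 kb from the start of Meg3, rose against Empty_Vector with shRNA_5bp alone. It was at 151.3, 132.5, 136.9 and 157.5 CPM with shRNA_5bp and at 71.2, 74.6, 67.4 and 61.4 CPM with shRNA_2bp. It was at 73.0, 68.6, 61.7 and 62.7 CPM with shRNA and at 71.7, 78.0, 78.6 and 81.0 CPM with Empty_Vector. The shRNA_5bp libraries stood above all others, and the remaining 3 groups overlapped. MiR-540-3p rose 1.86-fold with shRNA_5bp against Empty_Vector (1.60 to 2.17, adjusted p = 1.05e-08). It was also 2.17-fold higher with shRNA_5bp than with shRNA (1.86 to 2.53, adjusted p = 2.46e-10) and 2.09-fold higher than with shRNA_2bp (1.77 to 2.47, adjusted p = 2.14e-09). Against Empty_Vector the log2 value was -0.16 ± 0.107 with shRNA_2bp (interval -0.40 to 0.07, adjusted p = 0.183) and -0.22 ± 0.097 with shRNA (-0.43 to -0.01, adjusted p = 0.0847). The shRNA value passed in DESeq2 (-0.25, adjusted p = 0.0248).

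MiR-665-3p, the last of the set, was counted 2 to 14 times in the shRNA_5bp libraries, 3 to 12 times in the shRNA_2bp libraries, 19 to 40 times in the shRNA libraries and 7 to 45 times in the Empty_Vector libraries. Its means were 4.72 ± 2.00, 3.36 ± 1.71, 4.98 ± 1.12 and 3.77 ± 0.723 CPM (SD, n = 4) in the same order, and every pair of groups overlapped. No comparison passed. The intervals against Empty_Vector, -0.47 to 1.09 with shRNA_5bp, -0.97 to 0.66 with shRNA_2bp and -0.23 to 0.95 with shRNA (log2), leave room for changes near 2-fold.

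Taking the members together, their summed level was 4589 to 5255 CPM with shRNA_5bp, 2052 to 2325 CPM with shRNA_2bp, 6938 to 8218 CPM with shRNA and 7179 to 8294 CPM with Empty_Vector. MiR-770-3p dominated the sum. It held 77.5 to 80.6% of the members' counts with shRNA_5bp, 64.6 to 66.6% with shRNA_2bp, 84.6 to 86.4% with shRNA and 81.9 to 84.0% with Empty_Vector.

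Between hairpins, 5 of the 9 tested members were lower and 1 was higher with shRNA_2bp than with shRNA, where 33.5% of all tested miRNAs were lower and 31.1% higher. With shRNA_5bp against shRNA, 4 were lower and 2 higher, beside 24.6% and 28.4%. That background turned on single libraries. In all, 119 miRNAs were lower and 137 higher, but 149 to 160 were lower and 90 to 94 higher without shRNA library 1, 2 or 3 or without shRNA_5bp library 4, where 4 or 5 members were lower and 1 or 2 higher. With shRNA_5bp against shRNA_2bp, 0 were lower and 6 higher, beside 22.8% and 36.9%. The groups did not overlap for 6, 6 and 5 of the 9 in these comparisons, beside 58.4%, 48.7% and 53% of all tested miRNAs.

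Along the chromosome, the tested arms of the first 3 precursors, which start 22.7 to 39.2 kb from the start of Meg3, all fell with shRNA_2bp, with log2 changes of -2.68 to -0.67. The 3 tested arms of the next 3 precursors, at 44.8 to 45.3 kb, had values of -0.14, -0.16 and -0.15 with shRNA_2bp and did not pass. The last value, of miR-665-3p, rests on 3 to 12 counts per shRNA_2bp library and has an interval of -0.97 to 0.66. Each of these 3 precursors has only 1 tested arm. The scarce miR-337-3p, untested in the main fit, was at -1.96 ± 0.810 with shRNA_2bp without the filter (adjusted p = 0.0629). The division into 2 stretches was made with these values known. With shRNA_5bp, the tested arms of the first 3 precursors had values of -1.48 to -0.51, and the next 3 were -0.16 for miR-337-5p, 0.90 for miR-540-3p and 0.31 for miR-665-3p. With shRNA the 2 stretches were not set apart in this way, with values of -0.67 to 0.31 in the first 3 precursors and of -0.51, -0.22 and 0.36 for miR-337-5p, miR-540-3p and miR-665-3p. Past the members, the 10 tested anti-Rtl1 arms, at 49.5 to 54.4 kb, ranged from -2.26 to 0.10 with shRNA_2bp, where 7 fell and 0 rose. Falls with shRNA_2bp thus lay on both sides of miR-337, miR-540 and miR-665. Whether the change follows position was not tested.

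**Figure D4:**
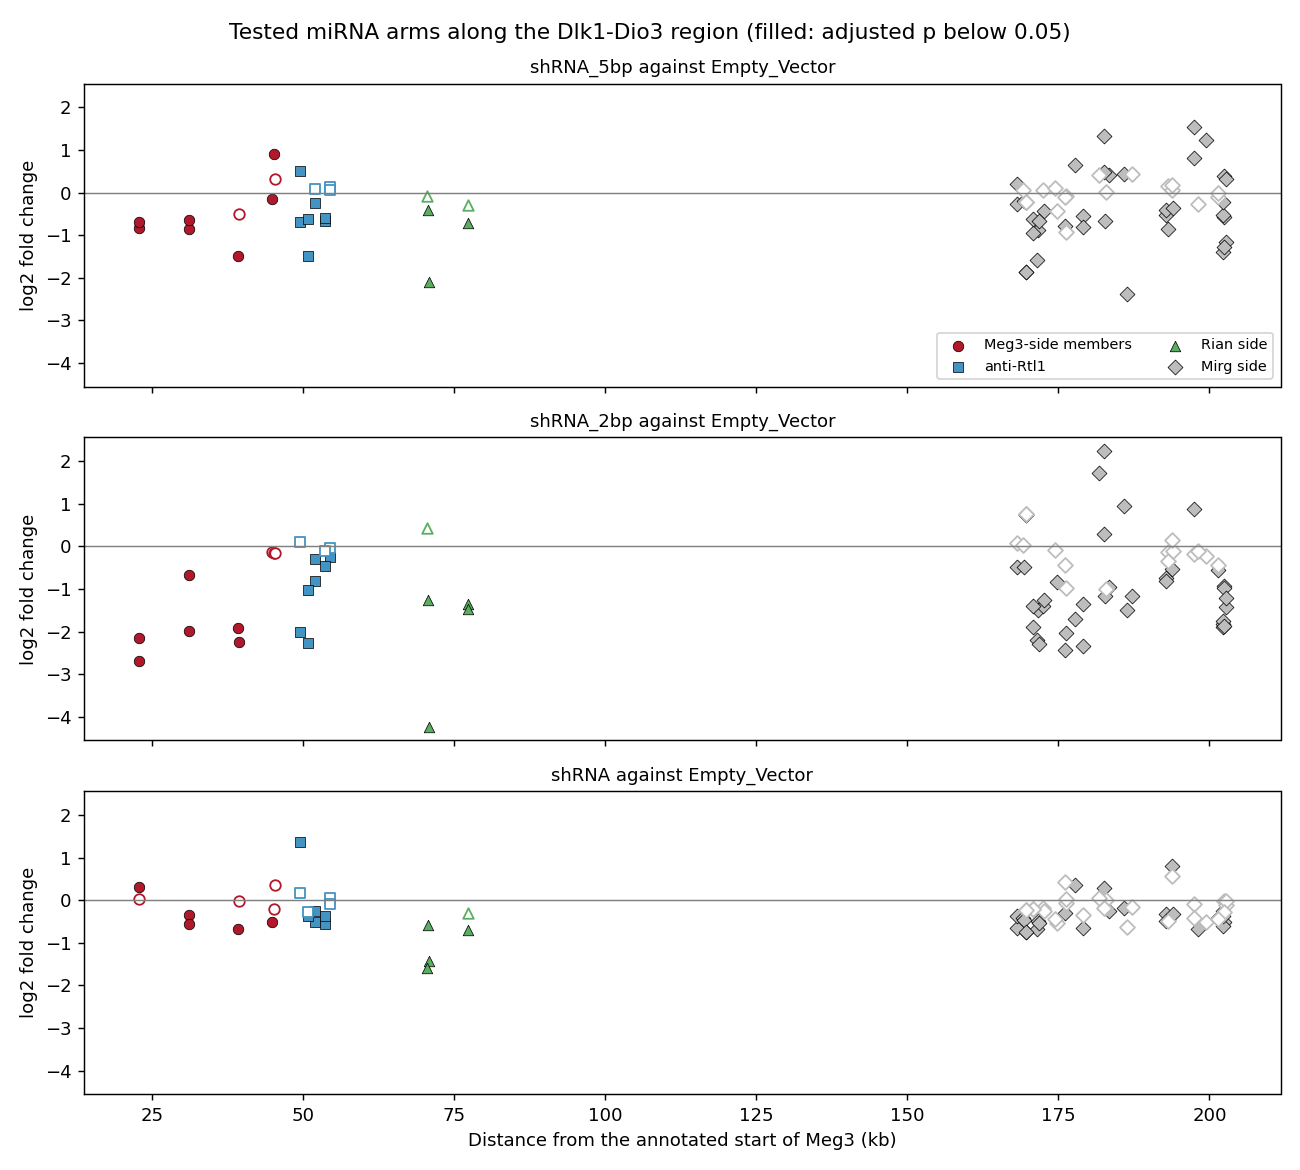
Log2 fold change against Empty_Vector of tested miRNA arms by distance from the annotated start of Meg3, 1 panel each for shRNA_5bp, shRNA_2bp and shRNA. Red circles are the members, and the other symbols are 10 anti-Rtl1, 5 Rian-side and 54 Mirg-side arms with a position in RefSeq. Filled symbols passed an adjusted p of 0.05. In the middle panel the members at 22.7 to 39.2 kb lie below 0 and the 3 at 44.8 to 45.3 kb lie near it. The 10 anti-Rtl1 arms there, at 49.5 to 54.4 kb, lie between -2.26 and 0.10.

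The rest of the region gave a mixed background. Among 10 tested anti-Rtl1 miRNAs, the next group along the chromosome, 6 fell and 1 rose with shRNA_5bp (median -0.42), 7 fell and 0 rose with shRNA_2bp (median -0.38), and 5 fell and 1 rose with shRNA (median -0.27). Of 5 tested Rian-side miRNAs 3, 4 and 4 fell and 0 rose (medians -0.42, -1.34 and -0.70 in the same order of hairpins). Of 57 tested Mirg-side miRNAs 26 fell and 11 rose with shRNA_5bp (median -0.22), 33 fell and 7 rose with shRNA_2bp (median -0.83), and 24 fell and 3 rose with shRNA (median -0.31). The 5p arms of miR-299a and miR-299b had identical values in each comparison, and so did their 3p arms. The Mirg-side counts include these values under both names. The most abundant miRNA of each list had these levels. MiR-127-3p, the main anti-Rtl1 miRNA, was at 19044 ± 808.0 CPM with shRNA_5bp, 12844 ± 924.6 with shRNA_2bp, 15876 ± 650.6 with shRNA and 22486 ± 2067 with Empty_Vector. The Rian-side miR-370-3p was at 11449 ± 123.2, 6728 ± 393.4, 11536 ± 340.0 and 18758 ± 1035 CPM in that order. On the Mirg side miR-381-3p was at 7230 ± 283.7, 10388 ± 283.2, 4744 ± 247.1 and 5364 ± 256.7 CPM in that order. The first and second of these had their highest mean with Empty_Vector and miR-381-3p with shRNA_2bp. Whether the members differ from these lists was not tested.

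Patterns close to those of the members were found inside and outside the region, by the root mean square difference of log2 CPM centred over the 16 libraries, among 354 miRNAs of at least 10 CPM that are not members. The nearest to miR-770-3p were miR-666-5p (0.18) and miR-380-3p (0.26), both on the Mirg side. The nearest to miR-770-5p were miR-760-3p on chromosome 3 (0.26) and miR-877-5p on chromosome 17 (0.26), both nearer than its own 3p arm (0.31). MiR-760-3p was at 555.1 CPM with shRNA_5bp, 193.2 with shRNA_2bp, 1713 with shRNA and 1497 with Empty_Vector (means of 4). MiR-673-5p lay nearest to miR-380-3p (0.21) and miR-1981-5p on chromosome 1 (0.24), and miR-673-3p to the anti-Rtl1 miR-434-5p (0.20) and miR-185-3p on chromosome 16 (0.20). MiR-493-5p lay nearest to miR-412-5p (0.28) and miR-323-3p (0.30) of the Mirg side. MiR-337-5p lay nearest to miR-411-5p (0.12), also on the Mirg side, and miR-340-3p on chromosome 11 (0.15). MiR-540-3p was nearest to miR-101b-3p on chromosome 19 (0.20) and the Mirg-side miR-154-5p (0.20), which were at 262.4 and 72.6 CPM with shRNA_5bp and at 149.9 and 41.8 CPM with Empty_Vector. Its nearest fellow member, miR-337-5p, was farther away (0.46). Each member had only 6 fellow members to be compared with, beside the 354 others. The nearest of the 6 and the nearest of the 354 are therefore not on an equal footing.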

How the data were processed

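The authors deposited raw counts of small RNA reads per mature miRNA name. Per the labels' protocols, libraries were made from 100 ng of total RNA with 15 PCR cycles. The submitters' processing notes name bcl2fastq 2.20.0.422, Trim Galore 0.6.0, cutadapt 1.15, Bowtie 1.1.1, edgeR and GRCm38.p6, with no roles. No molecular identifiers are named, so detection limits cover counting error only. All 1978 names were fitted in edgeR 4.0.16 (R 4.3.3) with 1 coefficient per group, trimmed mean of M values scaling, edgeR's low-count filter (483 tested) and a robust quasi-likelihood F test with 12 residual degrees of freedom. Each standard error was derived from the log2 change and F, and the 95% intervals use 12 degrees of freedom, fewer than the moderated test. The test was tested on simulated data: for shRNA_2bp against Empty_Vector, with 483 miRNAs, it called 87% of 100 changes of 1 and 100% of 100 changes of 2 (log2), and 4 of 283 unchanged miRNAs. All 10 members are named whatever their values. Nearest patterns used a prior count of 2 on the log2 scale. Replicate numbers passed the pairing check (every correlation of same-numbered libraries over 0.1) for shRNA_2bp against shRNA alone, at 0.166 to 0.198 over 361 miRNAs of at least 10 CPM. The block changed no call there. DESeq2 1.42.0, library-size scaling, no filter, 2-group fits, the replicate block and leaving out each library were tried as alternatives. The members, lists and tests were chosen with earlier results of these data known.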

Additional observations from a re-analysis of the deposited data

Results flagged for a closer look

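Among 48 sets of 4 libraries checked for a library far from the others (40 of member levels and 8 of arm ratios), 3 held one by a measured gap, and chance flags about 1 in 20. With shRNA, miR-770-5p was lowest in library 4 at 305.7 CPM, with the others at 342.7 to 347.9 CPM. In the same group miR-493-3p was lowest in library 2 at 6.10 CPM, with the others at 8.42 to 8.76 CPM. With Empty_Vector, miR-337-5p was highest in library 2 at 597.7 CPM, with the others at 552.3 to 558.4 CPM. With shRNA_2bp, miR-337-3p was counted in library 2 alone, at 1.36 CPM, which stands apart only because the other 3 libraries were tied at 0.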

How the results depend on the processing

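The counts of members called stayed within 1.5 times under every alternative run, and the 6 differences in arm ratio kept their sign. Of 54 tests of single members, 37 kept direction and side of the threshold under every alternative that gave a value. Values that changed sign with library-size scaling were miR-337-5p (0.0836 with shRNA_5bp, 0.0383 with shRNA_2bp), miR-540-3p (0.0181) and miR-665-3p (0.0309) with shRNA_2bp, and miR-493-3p with shRNA (0.125), each against Empty_Vector, miR-673-3p (0.0236) and miR-665-3p (0.0520) for shRNA_5bp against shRNA, and miR-337-5p for shRNA_5bp against shRNA_2bp (0.0453). Without the filter, miR-540-3p for shRNA_2bp against shRNA was -0.0276. MiR-673-3p for shRNA_5bp against shRNA_2bp was -0.104 without the filter, -0.0550 in DESeq2 and -0.132 with only those groups in the fit. The cause was not tested. None but miR-337-5p with shRNA_5bp had been called. Leaving out 1 library gave both signs for 8 results, none of them called, with ranges of -0.575 to 0.0756 (miR-665-3p, shRNA_2bp against Empty_Vector), -0.0429 to 0.129 (miR-770-3p) and -0.0483 to 0.159 (miR-493-3p, both shRNA against Empty_Vector), -0.00623 to 0.0814 (miR-540-3p, shRNA_2bp against shRNA), -0.292 to 0.0120 (miR-673-3p) and -0.317 to 0.0893 (miR-665-3p, both shRNA_5bp against shRNA), and -0.132 to 0.112 (miR-673-3p) and -0.157 to 0.0426 (miR-337-5p, both shRNA_5bp against shRNA_2bp). With only 2 groups in the fit, miR-665-3p was not tested for shRNA_2bp against Empty_Vector, nor were miR-493-3p and miR-665-3p for shRNA_5bp against shRNA_2bp.

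With the replicate block 53 of the 54 kept direction and call. The exception was miR-337-5p with shRNA_2bp against Empty_Vector (-0.14, adjusted p = 0.0363), where the numbers did not pass the pairing check (lowest correlation 0.041). For shRNA against Empty_Vector the lowest was 0.089, and each of the 8 libraries was most like its namesake, as a hint from the data. Paired arm ratios gave adjusted p = 0.25 to 0.375, in a design that cannot reach the threshold. Among all tested miRNAs called against Empty_Vector, the share that rose was 72.7% with shRNA_5bp under library-size scaling (54.1% with the trimmed mean), 61.9% with shRNA_2bp (50.8%) and 77.2% with shRNA (56.5%). Without the filter it was 38.2% with both mutated hairpins, and 33.7% for shRNA_5bp against shRNA (53.5% with it), where the median of all tested miRNAs moved to -0.28 with shRNA_5bp and -0.18 with shRNA_2bp against Empty_Vector. For shRNA_5bp against shRNA_2bp it was 49.6% with only those groups in the fit (61.8% before). The low totals of the mutated-hairpin libraries limit miR-493-3p, miR-337-3p and miR-665-3p most.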

Other observations

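The opposite arms of miR-540 and miR-665 are in the count table but are not among the 10 members. MiR-540-5p was counted 0 to 3 times in the shRNA_5bp libraries, 0 to 2 times in the shRNA_2bp libraries, 1 to 7 times in the shRNA libraries and 2 to 8 times in the Empty_Vector libraries. MiR-665-5p had 0 counts in all 16 libraries.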
